A study of Mus musculus with 86 samples.

Results

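The cytosolic ribosomal protein genes were described across 86 single cells of the embryonic mouse kidney. Members were the rows of the deposited expression table whose gene symbol has the form of a small subunit (Rps) or large subunit (Rpl) protein of the cytosolic ribosome, together with Rplp0, Rplp1, Rplp2 and Rpsa. Symbols marked as pseudogenes or related sequences were left out. This gave 82 of the 12360 genes of the table, 33 of the small and 49 of the large subunit. Of these, 77 are the usual genes of their proteins and 5 are paralogs, that is, further genes of similar sequence: Rps27l, Rps4y2, Rpl7l1, Rpl22l1 and Rpl36al. Of these, Rps4y2 carries the gene ID of a transcribed pseudogene in RefSeq and GENCODE, and it is kept here because its symbol fits the rule. The choice used names and no measured value.

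The ribosome translates messenger RNA into protein. Its small subunit reads the message and its large subunit joins the amino acids, and each subunit holds 1 copy of nearly every one of its proteins, while the stalk proteins Rplp1 and Rplp2 are present in more than 1 copy. Ribosomal protein messages are among the most abundant in growing cells and many begin with a pyrimidine-rich stretch that couples their translation to growth signals. The proteins with a paralog are of interest because the paralog can take the place of the usual protein in some tissues.

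All cells were wild type, of mixed strain background, from the metanephros (the permanent kidney) of embryos of both sexes at 12.5 days post coitum, Theiler stage 20. The kidneys were pooled before dissociation and each cell was captured in its own chamber of a Fluidigm C1 instrument, so the 86 cells are 1 sample without a control group. No test was made, and SD and coefficient of variation (CV, SD as a percent of the mean) describe the spread over cells. RPKM is a read number divided by the length of the gene and by the total mapped in that cell. The gene lengths that the authors used are not known here, and comparisons of level between genes depend on them. The RPKM of all genes of the table did not sum to the same total in each cell. That total ran from 404658 to 503816, with a median of 439945. A gene was called detected at an RPKM of at least 1.

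Cells had between 3458 and 7100 detected genes (median 6164), and 5 of them (cells 29, 41, 45, 64 and 87) fell more than 3 median absolute deviations below the median. Reads per cell, estimated from the step size of low values, ranged from 306013 to 6.18e+06 with a median of 2.01e+06. In 4 cells the estimate was under 500000. Of the marker lists for cells that a kidney can also hold, endothelium, erythroid cells and immune cells each had 1 gene in the table, with summed levels from 0 to 64.0, 18.1 and 31.1 RPKM, and those genes were detected in 10, 18 and 7 cells.

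The paralog pairs carry much of what follows, so the start of the coding sequence is shown for the 2 pairs that align over their whole length without a gap. The runs are the first 90 coding bases from GENCODE M21 on the genome build GRCm38, and capitals mark bases that differ between the partners. Rps27 and Rps27l, on chromosomes 3 and 9, each have a coding sequence of 252 bases without the stop codon and share 76.2% of them. The longest identical run between them is 11 bases.
Rps27: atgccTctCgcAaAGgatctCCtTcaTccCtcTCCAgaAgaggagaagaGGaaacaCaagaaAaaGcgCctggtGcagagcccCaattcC
Rps27l: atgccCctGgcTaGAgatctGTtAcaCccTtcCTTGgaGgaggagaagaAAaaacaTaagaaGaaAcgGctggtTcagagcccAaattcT
In these stretches 24 of the 90 bases differ. Rpl36a on the X chromosome and Rpl36al on chromosome 12 share 87.7% of 318 coding bases, with a longest identical run of 24 bases.
Rpl36a: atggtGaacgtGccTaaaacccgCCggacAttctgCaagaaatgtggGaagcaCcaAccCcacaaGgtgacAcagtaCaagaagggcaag
Rpl36al: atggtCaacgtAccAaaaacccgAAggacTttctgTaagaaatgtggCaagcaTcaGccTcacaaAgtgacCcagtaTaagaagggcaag
Here 14 of the 90 bases differ. Rpl22 and Rpl22l1 share 66.4% of their aligned coding bases with a longest identical run of 26 bases, and Rpl7 and Rpl7l1 share 52.0% with a longest run of 10 bases. Differences thus recur within short distances along each of the pairs shown.

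Ribosomal protein messages filled a sizeable and fairly even share of every cell. The summed RPKM of the 82 members was 46663 in the lowest cell, 64544 in the median cell and 102381 in the highest (mean 65171, SD 9283, CV 14.2%). As a share of all RPKM in the table for the same cell, this was 11.3, 14.6 and 20.3%. The 2 highest cells, 42 and 52, were also 2 of the 4 cells with under 500000 estimated reads. Without those 4 cells the CV was 12.4%, and without the 5 cells of few genes it was 13.7%. Cells 13, 38 and 35 had the lowest sums, with 2.15e+06, 2.54e+06 and 1.10e+06 estimated reads. Across the 86 cells, the sum had a Spearman correlation (rho) of 0.11 with estimated reads and -0.18 with detected genes. Its rho with the RPKM of all genes in the cell, of which the members are a part, was 0.76. The share of that total had a CV of 11.3%. These are values of cells of 1 pool that share a preparation.

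**Figure D1:**
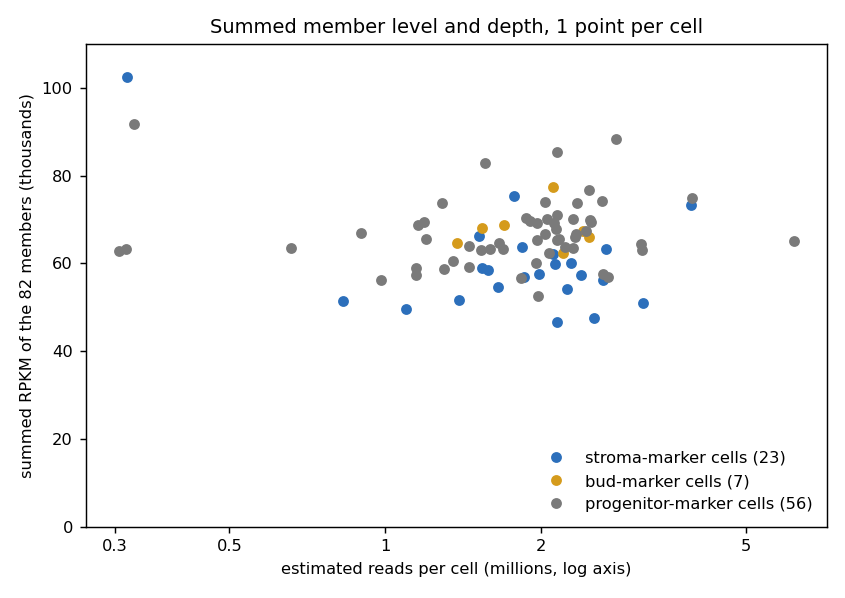
Summed RPKM of the 82 members (vertical axis, from 0) against estimated reads (horizontal axis, logarithmic), with 1 point per cell coloured by marker group. The sums range from 46663 to 102381, and the highest points are the shallow cells 42 and 52.

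Both subunits moved together. The small subunit sum ran from 19222 to 40851 RPKM with a median of 26089, and the large subunit sum from 27014 to 61529 with a median of 38638. Their rho over the 86 cells was 0.90 (Pearson 0.94), where both share the depth and the total of each cell. The large subunit sum divided by the small subunit sum stayed between 1.33 and 1.68 (median 1.48, SD 0.0746), a CV of 5.05%, which is smaller than the CV of either sum (14.5 and 14.4%).

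Single members were present almost everywhere. Of the 82 members, 80 were detected in all 86 cells, beside 5.55% of all genes of the table. The exceptions were the paralogs Rps4y2, detected in 76 cells, and Rpl7l1, detected in 85. Other genes of high level were as broadly present. Detection in all 86 cells held for 100% of the 70 other genes with a mean of at least 500 RPKM. It held for 81.4% of the 290 with a mean of at least 200. The CV of a member had a median of 27.3% and ranged from 16.5% for Rpl14, a large subunit protein, to 96.6% for Rps4y2. It was under 50% for 78 members, beside 23.6% of the 1553 genes whose mean was 50 RPKM or more. High expression goes with that evenness in this table: among the 70 other genes whose mean reached 500 RPKM, the median CV was 32.0% and 65 were under 50%.

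Levels of the usual members differed widely although a ribosome holds nearly equal numbers of each protein. Among the large subunit, Rpl41, the smallest ribosomal protein, had the highest level of all members, with 1548 RPKM in the lowest cell, 2357 in the median cell and 3812 in the highest. Rpl9, Rpl7 and Rpl32 had means of 1798 (SD 451), 1796 (SD 453) and 1611 (SD 423). Rpl4, which lines the exit tunnel for new protein, had a mean of 1598 (SD 402) but fell to 302 in cell 87, a cell of few genes. The stalk protein Rplp0, which anchors Rplp1 and Rplp2, had a mean of 1752 (SD 412), against 829 (SD 234) for Rplp1 and 630 (SD 176) for Rplp2. So the base of the stalk had the higher messenger level, while Rplp1 and Rplp2 lay near the middle of all members.

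In the small subunit, Rps14 had the highest mean at 1834 (SD 381), and Rps3a had one of 1546 (SD 326). These means lay within 1 SD of each other. Rpsa, which is also known as the laminin receptor, had a mean of 950 (SD 262). Rps27a, which is made as a fusion with ubiquitin, had a mean of 845 (SD 243). The lowest member of all was Rps15a, with 23.7, 61.9 and 191 RPKM in the lowest, median and highest cell.

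Other low members were Rps24, Rps12 and Rps21 of the small subunit, with means of 138 (SD 61.7), 196 (SD 59.0) and 213 (SD 74.4). In the large subunit these were Rpl22, Rpl18 and Rpl11, at 95.0 (SD 50.0), 188 (SD 55.8) and 190 (SD 63.0). Rpl11 binds the p53 regulator Mdm2 when ribosome assembly fails. The remaining low members were the paralogs Rpl7l1, Rps4y2 and Rpl36al. The 77 usual members had a median of their means of 754 RPKM, and the 5 paralogs one of 113.

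**Figure D2:**
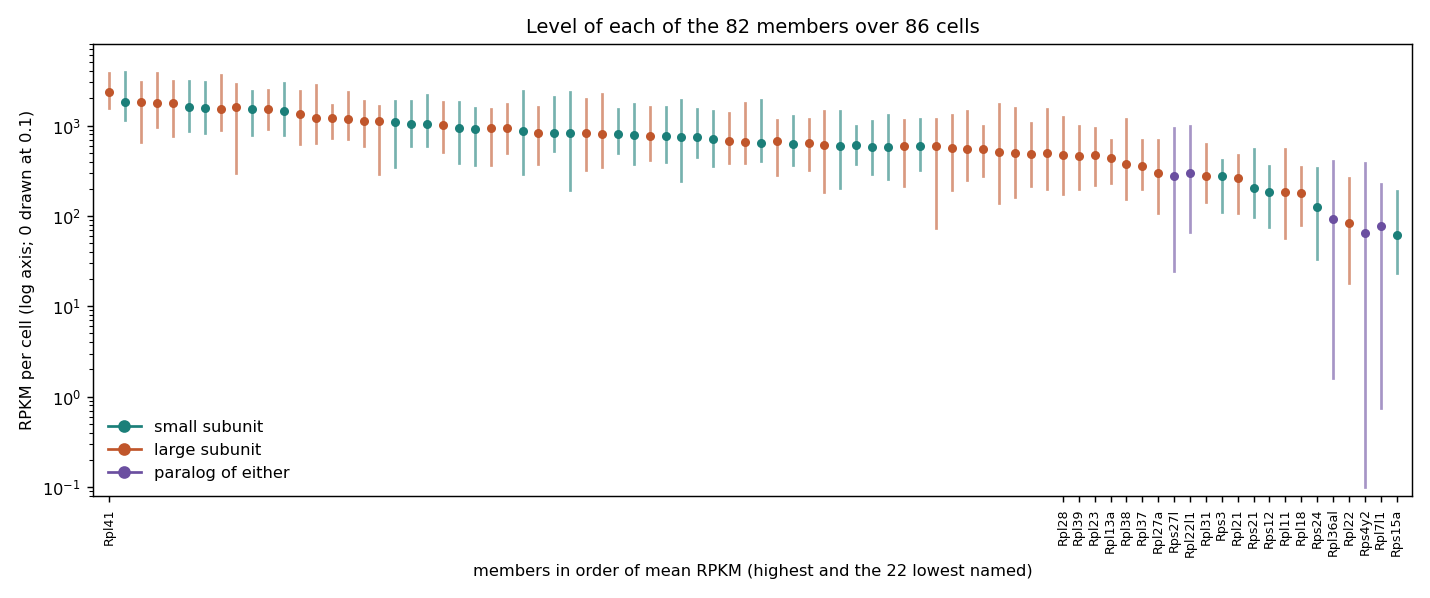
RPKM of each member (vertical axis, logarithmic, 0 drawn at 0.1), with members ordered by mean from Rpl41 to Rps15a. Points are medians over 86 cells and lines run from the lowest to the highest cell; the lines of Rpl36al, Rps4y2 and Rpl7l1 reach lower than those of all other members.

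Extreme values gathered in few cells. Cell 42, with 317227 estimated reads, held the highest value for 26 of the 82 members, and cells 45 and 52 held it for 8 each. The lowest value lay in cell 35 for 11 members and in cell 87 for 10. Ranges given here therefore depend on a handful of cells, of which 45 and 87 were cells of few genes.

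To see which members varied on their own, the log2(RPKM + 1) of a member was taken relative to the median of the other members in the same cell. The SD of this difference over cells is called its own spread. It had a median of 0.34 over the 82 members. The smallest values were those of Rpl41 (0.16), Rps29 (0.21), Rpl13 (0.23), Rpl14 (0.24) and Rps28 (0.25), so these members kept the most even proportion to the rest. Rpl41 also had the highest rho with the other members, at 0.80, and the median over members was 0.45. All but 1 member had a rho above 0, the exception being Rpl7l1 at -0.03.

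The largest own spreads belonged to Rps4y2 (2.45), Rpl36al (1.56), Rpl7l1 (1.53), Rps27l (0.77), Rpl22 (0.73) and Rpl22l1 (0.63). These are the 4 other paralogs and the pseudogene Rps4y2, together with Rpl22, the usual partner of one of them. They are also low members, with means from 85.0 to 303 RPKM. Their CVs ran from 45.2 to 96.6%. The median CV was 71.6% for the 1471 other genes with a mean of at least 50 RPKM, and 45.0% for the 290 with at least 200. Rps15a, with the lowest mean of 65.6, had an own spread of 0.44. The part of level in own spread was not tested. Next came Rps24 (0.54), Rps2 (0.49), Rpl17 (0.48) and Rpl36a (0.46). The value of Rpl17 rested on cell 45, a cell of few genes, where it was 73.4 RPKM against a median of 588 over all cells. Without the 5 cells of few genes its own spread was 0.31.

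The spread that counting at the estimated reads would give was set beside own spread. Rps20 was left out because its transcript length was uncertain. For the other 81 members the estimated reads per cell had a median between 29.6 (Rps15a) and 4766 (Rpl4), and own spread exceeded the spread from counting alone in all 81. It was at least 2 times as large in 80, the exception being Rps15a at 1.43 times. For Rps4y2 the ratio was 4.34 and for Rpl41 4.23. The reads are estimates from the shortest GENCODE transcript of each gene, protein-coding where there was one. For Rps15a that transcript has 250 bases and the longest 5179, so its reads and its ratio depend on this choice. Losses during reverse transcription and amplification are not part of the counting spread. What part counting and such losses have in own spread was not tested.

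**Figure D3:**
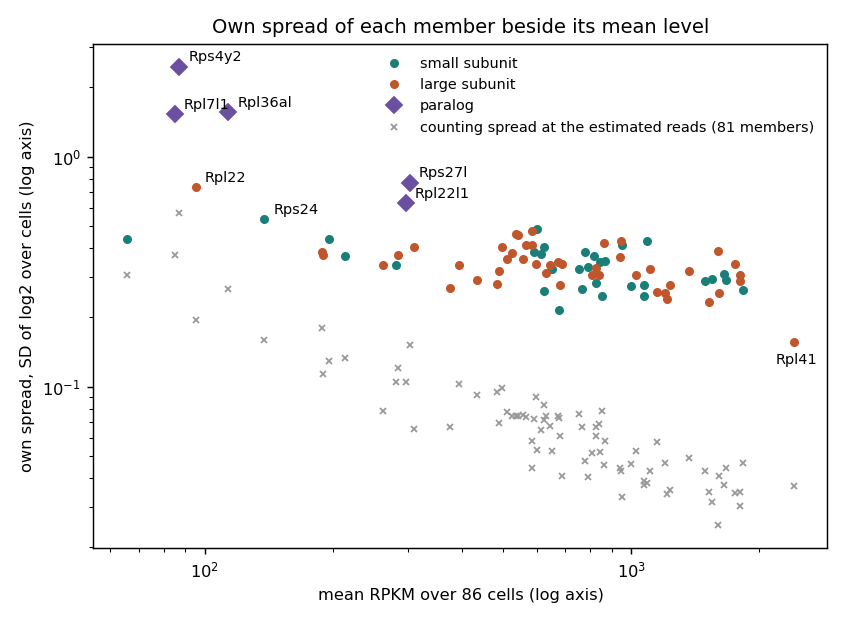
Own spread (vertical axis, SD of log2 over 86 cells, logarithmic) against mean RPKM (horizontal axis, logarithmic) for each member, with crosses for the spread from counting at the estimated reads. Rps4y2, Rpl36al and Rpl7l1 lie highest at 2.45, 1.56 and 1.53, and Rpl41 lowest at 0.16.

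The members were also compared as pairs, before and after the common movement was taken off. Over the 3321 pairs of all 82 members, paralogs included, the rho of RPKM was above 0 in 94.6% (median 0.22). Pairs of other genes of like level were not set beside this share, so whether it is particular to the members was not tested. The rho of the own differences had a median of 0.01 and ran from -0.38 to 0.42. Among the highest were Rpl32 with Rps18 (0.42), Rps27 with Rpl23a (0.40), Rpl14 with Rpl30 (0.39) and Rps18 with Rpl17 (0.39). Among the lowest were Rps27 with Rpl8 (-0.35), Rplp0 with Rpl27 (-0.34), Rpl14 with Rps26 (-0.34) and Rps16 with Rpl36 (-0.33). With 3321 pairs over 86 cells, these ends of the range are descriptions only. Subtracting the median of the other members takes off what they share. The fall of the median rho to near 0 therefore follows from the method.

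The 16 members whose human counterparts are mutated in Diamond-Blackfan anaemia, a failure of red cell production, lay inside the range of the others. Their means ran from 138 (Rps24) to 1001 RPKM (Rps26), with a median CV of 29.2% and a median own spread of 0.35. The 4 members on the X chromosome (Rps4x, Rpl10, Rpl36a and Rpl39) had a median own spread of 0.37, against 0.34 for the 78 others.

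The paralogs differed from each other in how they stood to their partners. Rpl22l1 (gene 68028, mm9 chr3:28704433-28706337) exceeded Rpl22 (gene 19934, chr4:151699987-151708180) in 83 of 86 cells. Rpl22 binds RNA and is dispensable for most translation, and Rpl22l1 can replace it. Rpl22l1 had 67.0, 296 and 980 RPKM in the lowest, median and highest cell, and Rpl22 had 18.2, 84.0 and 266. The share of Rpl22l1 in the pair was 29.6, 77.8 and 93.8% in the lowest, median and highest cell (SD 12.9 percentage points). The 2 ranges overlap between cells, but within a cell the paralog was the lower one in only 3. The rho between the partners was 0.07.

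In the other 4 pairs the usual gene was higher in every cell. Rps27l, a target of p53 known from other systems, had 24.3, 278 and 932 RPKM (gene 67941, mm9 chr9:66793925-66797316). Its partner Rps27, which carries a zinc finger, had 354, 710 and 1447 (gene 57294, chr3:90016589-90017570). The share of Rps27l was 3.98, 30.2 and 48.3% and the rho between the partners -0.00. Rps27l was thus a large minority of its pair in the median cell, and never reached the level of Rps27.

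Rpl36al (gene 66483, mm9 chr12:70283721-70285054) made up 0.160, 15.2 and 44.1% of its pair with Rpl36a, in the lowest, median and highest cell, with levels of 1.61, 91.6 and 402 RPKM. Rpl36a, the usual gene on the X chromosome (131120193 to 131122601), had 162, 491 and 1585. The rho between them was 0.12. Rpl7l1 (gene 66229, chr17:46910856-46919605), a relative of Rpl7 that works in ribosome assembly, made up 0.0422, 4.43 and 12.3% of its pair and had 0.752, 78.1 and 229 RPKM. The single cell below 1 was cell 64, a cell of few genes with an estimated 1.78e+06 reads.

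Rps4y2 (gene 66184, mm9 chr6:148303178-148304118) had a median of 64.5 and a highest value of 381 RPKM, and it was under 1 in 10 cells, of which 6 were listed at 0. Among those 10 cells, 3 were cells of few genes, and the estimated reads ran from 1.15e+06 to 3.90e+06, so none was a shallow cell. Its share of the pair with Rps4x had a median of 6.12% and reached 27.2%. RefSeq and GENCODE name this gene ID Rps4l, and its transcript aligned to that of Rps4x at 80.2% over 786 bases. Whether its RNA makes a protein cannot be told from these values. The paralogs Rpl3l, Rpl10l, Rpl39l and Rpl21l were not analysed here.

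**Figure D4:**
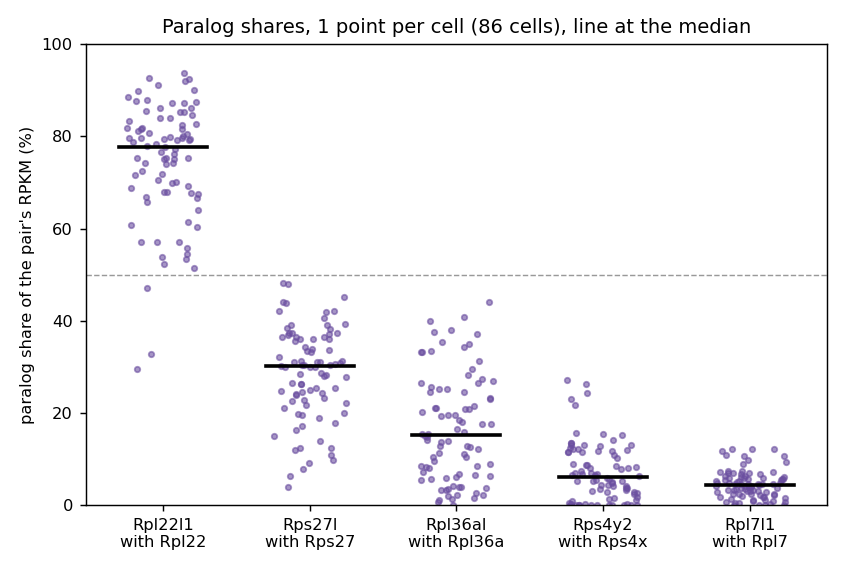
Share of the paralog in the summed RPKM of each pair (vertical axis, percent), with 1 point per cell for 86 cells, a bar at the median and a dashed line at 50%. Rpl22l1 lies above the line in 83 cells, and the other 4 paralogs lie below it in all cells.

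Promoter sequence is shown for the 2 pairs with the highest paralog share. Each run covers 70 bases before and 30 bases from the start site, from RefSeq on GRCm38.p6, read along the gene. Capitals mark CTTTCC, a core of the pyrimidine-rich start of ribosomal messages, CCGGAAG, the core bound by ETS factors, or TATAAA, the TATA box.
Rpl22: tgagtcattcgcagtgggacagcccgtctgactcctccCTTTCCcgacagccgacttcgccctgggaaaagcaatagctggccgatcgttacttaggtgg
Rpl22l1: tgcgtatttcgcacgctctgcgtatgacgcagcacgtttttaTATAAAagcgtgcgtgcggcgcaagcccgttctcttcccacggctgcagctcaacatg
Rps27: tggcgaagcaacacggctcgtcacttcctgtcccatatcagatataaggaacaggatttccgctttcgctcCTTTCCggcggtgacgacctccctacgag
Rps27l: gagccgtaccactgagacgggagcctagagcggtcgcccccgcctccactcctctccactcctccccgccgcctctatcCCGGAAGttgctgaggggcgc
These lie at chr4:152325656-152325755 (plus strand), chr3:28805438-28805537 (plus), chr3:90213619-90213718 (minus) and chr9:66946016-66946115 (plus). In Rps27 the CTTTCC match began at base 2 after the start, and in Rpl22 it began 32 bases before the annotated start. Neither paralog held CTTTCC in the 50 bases on either side of its start. Only this exact string was searched for, so other pyrimidine runs near a start were not counted. Such a run, ttctcttccc, lies just after the start of Rpl22l1. Rpl22l1 held TATAAA from 28 bases before its start.

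A RefSeq promoter was matched by gene ID for 61 of the 82 members, and the others were not counted. In these 61, CTTTCC lay within 50 bases of the start, on the printed strand, in 27.9%. The background was 4.67% of 27025 RefSeq promoters, which were not limited to genes of the expression table. CCGGAAG, on either strand from 250 bases before to 50 bases after the start, was in 39.3% against 9.12%. TATAAA, within 50 bases on the printed strand, was in 8.20% against 3.69%, GGGCGG (the Sp1 core, both strands, the longer window) in 62.3% against 35.9%, and AAGATGGCG (the YY1 core, likewise) in 6.56% against 1.49%. The 17 members with CTTTCC had a median own spread of 0.37 and the 44 without it one of 0.33. A match is a description of letters and not a tested site.

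Levels of Rpl36al ran against those of a row that overlaps it. The row 1110034A24Rik (mm9 chr12:70283721-70299416) begins at the same base as Rpl36al, and rho between them over 86 cells was -0.67. It had 0, 26.1 and 141 RPKM in the lowest, median and highest cell. Both rows reached 50 RPKM in 9 cells, only Rpl36al in 46, only 1110034A24Rik in 16 and neither in 15. In the 20 cells where 1110034A24Rik was listed at 0, Rpl36al was between 68.4 and 390. Among the 7 other overlaps of members with rows that are not small nucleolar RNAs, the lowest rho was -0.09. Strand and the handling of shared reads in the authors' counting are not given in the sources used here, so the split of reads between the overlapping rows is uncertain, and its part in the wide own spread of Rpl36al was not tested.

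**Figure D5:**
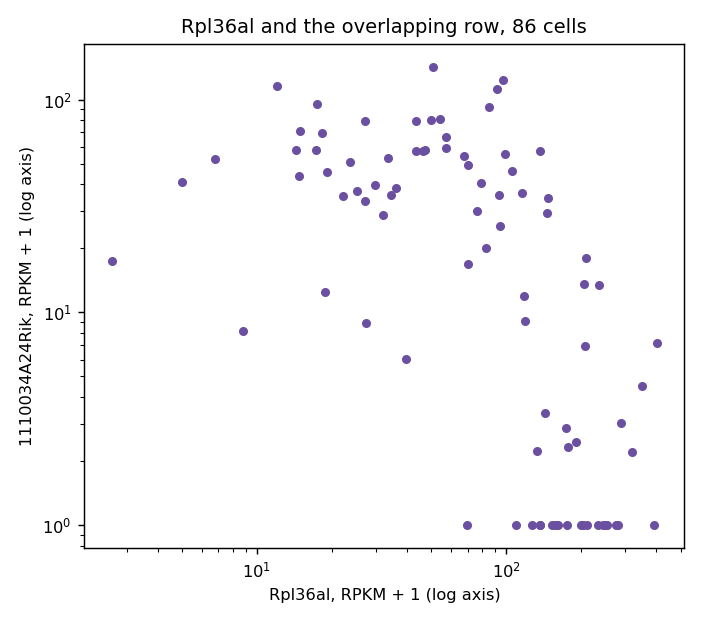
RPKM + 1 of 1110034A24Rik (vertical axis) against that of Rpl36al (horizontal axis), both logarithmic, with 1 point per cell for 86 cells. Points at the bottom edge are the 20 cells where 1110034A24Rik was listed at 0, and rho was -0.67.

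Introns of 18 members host 20 small nucleolar RNA rows, RNAs that guide the modification of ribosomal RNA. Their rho with the host gene ran from -0.19 to 0.26, with a median of 0.06. Copies of members elsewhere in the genome behaved otherwise. Of 82 processed pseudogenes among the rows of the table, 18 aligned to the transcript of 1 of 12 members at 90% identity or more over at least 200 bases. In 8 of them the rho with the member exceeded 0.5. Over all 18 the rho ran from -0.11 to 0.83, with a median of 0.46.

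The highest were Gm9104 with Rpl21 (0.83), Gm8580 with Rpl29 (0.83) and Gm13611 with Rpl36 (0.82). Gm10136 had a mean of 146 RPKM (SD 51.8), 25.7% of that of Rpl26, to which it aligned at 98.9%. Gm15421 aligned to the paralog Rpl22l1 at 99.5%, with a rho of 0.78 and a mean of 4.53% of its level. Gm10653 aligned to Rps2 at 91.6%, with a rho of 0.63 and a mean of 0.455% of its level. In all, the 18 pseudogene rows summed to 0.639% of the members' RPKM in the median. Reads of such near-identical copies may be divided between rows, so the levels of Rpl21, Rpl26, Rpl29, Rpl36, Rpl22l1 and Rps2 are uncertain. How the authors treated reads that map to several places is not given in the sources used here.

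Beyond the members, 5269 other genes had a mean of at least 10 RPKM, and each was correlated with the median member over the 86 cells. Among those that followed it most closely were the pseudogenes Gm8210 (0.52) and Gm13611 (0.47). Gm8210 aligned to the member Rpl29 at 99.4% and Gm13611 to Rpl36 at 98.4%. Reads may be divided between these copies and the members, so their rho is not that of separate genes. Then came Snrpd2, a splicing protein, at 0.47 and Ebna1bp2, a nucleolar protein, at 0.46. Sdc4, Pabpc1, Ppia, Snrpg and Mrpl23 lay between 0.45 and 0.44. Among the most negative were Ebf1 (-0.55), Meis1 (-0.50) and Fn1 (-0.49).

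Related lists followed the members to differing degrees. All 12 of 12 other genes with a pyrimidine-rich start or ribosome association had a rho above 0, and the list's median per cell had a rho of 0.41 with the member median. Among them were Npm1, a nucleolar chaperone (mean 1809 RPKM, rho 0.36), and Gnb2l1, which encodes the ribosome scaffold RACK1 (752, 0.43). For 22 translation factors the rho of the list was 0.17, with 16 of 22 above 0, and Eef1a1, which brings transfer RNA to the ribosome, had a mean of 6168 RPKM and a rho of 0.36. For 28 ribosome biogenesis genes it was 0.14, with 20 of 28 above 0.

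The 75 mitochondrial ribosomal proteins, which serve a separate ribosome, had a rho of 0.04 with the cytosolic ones, and 37 of 75 were above 0. Among all 5269 genes, 46.4% had a rho above 0 and the median was -0.01. Lists for S phase, G2/M and immediate early genes had rho of -0.07, -0.12 and -0.05. For the growth and nucleolar stress list it was -0.01.

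Rps27l and Rpl22l1 were set beside p53 and Myc genes. Rps27l had a rho of 0.31 with Myc and 0.33 with Mycn. With Trp53, which encodes p53, it had a rho of 0.21, and with the p53 targets Mdm2, Ccng1 and Cdkn1a one of -0.13, -0.11 and 0.14. Mdm2 was detected in 64 cells, Ccng1 in 31 and Cdkn1a in 6. Rpl22l1 had a rho of 0.38 with Myc and -0.01 with Mycn, of 0.12 with Trp53, and of -0.01, -0.17 and -0.01 with Mdm2, Ccng1 and Cdkn1a. These are correlations of single genes in sparse values and are given as descriptions.

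The cells were also set in groups by 52 lineage markers, none of them a member, since the labels give no cell type. Ward clustering gave 3 groups, at a mean silhouette of 0.196, so the groups are weakly separated. They held 23 cells with high stroma markers, 7 with high ureteric bud markers and 56 with high nephron progenitor markers, and they are named by those lists only. The summed member RPKM had a median of 57518 in stroma-marker cells (46663 to 102381), 65580 in progenitor-marker cells (52508 to 91692) and 67355 in bud-marker cells (62491 to 77372). The ranges overlap, and cell 42, the highest of all, was a stroma-marker cell.

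Ribosomal protein genes were a little lower in stroma-marker than in progenitor-marker cells. The log2 ratio of (mean RPKM + 1) was below 0 for 71 of 82 members, beside 53.6% of the 12308 genes outside the markers, with a median of -0.14 against -0.06 for all of those genes. No member reached a log2 ratio of 1 in either direction, beside 20.9% of all genes, and the ranges of all 82 overlapped. Estimated reads had medians of 1.98e+06 and 2.01e+06 in these groups, and detected genes of 5946 and 6326. Of the stroma-marker cells 3 were cells of few genes, and of the progenitor-marker cells 2. Without those cells 76 of 82 members were lower, with a median of -0.16. Without the cells under 500000 estimated reads 76 were lower, with a median of -0.19. The part of the number of detected genes in the difference was not tested.

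The members that differed most between these groups had the following values. Rpl22 had 20.3, 57.5 and 175 RPKM in the lowest, median and highest stroma-marker cell and 18.2, 101 and 266 in progenitor-marker cells, a log2 ratio of -0.60. Its paralog Rpl22l1 had 67.0, 312 and 980 against 93.3, 293 and 482, a ratio of 0.21. That ratio was 0.08 without the cells under 500000 estimated reads, among them cell 42 with the 980, and 0.13 without the cells of few genes. With means of log2 values it was 0.09. The range of Rpl22l1 in the progenitor-marker cells lay inside that in the stroma-marker cells. Rplp0 had 767, 1362 and 2044 against 1227, 1922 and 3153, a ratio of -0.44, so that its median in stroma-marker cells lay near the low end of the other group.

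Rpl18, a large subunit protein, had a ratio of -0.38. At the other end Rps15a had a ratio of 0.14 and Rps4y2 one of 0.26, which became -0.45 when means of log2 values were compared. Over single cells, the mean of 17 stroma markers had a rho of -0.43 with the member median, and 0 of 17 markers were above 0, while the 14 progenitor markers had a rho of 0.31. These correlations rest on the same cells and markers as the groups.

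In the 7 bud-marker cells, 58 of 82 members were higher than in the 79 others, with a median log2 ratio of 0.06 against -0.21 over all genes, of which 59.3% were lower. With each cell scaled to the RPKM of its other genes, 36 members were lower in place of 24, and the median was 0.02. Again no member reached a ratio of 1 in size, beside 31.3% of all genes, and all 82 ranges overlapped. Rps2, a small subunit protein at the entry of the message channel, had the highest ratio at 0.50, with 703, 736 and 1181 RPKM in bud-marker cells and 253, 567 and 1297 in the others. Rpl36al and Rpl34 followed at 0.40 and 0.34. The lowest were Rps4y2 at -0.94 (0, 31.0 and 187 against 0, 65.8 and 381), Rpl22l1 at -0.27 and Rpl6 at -0.23. Rps4y2 stood at -1.42 when means of log2 values were compared.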

How the data were processed

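The deposited table gives RPKM per gene and cell, which the authors limited, per the file headers, to genes that passed 3 RPKM in 3 or more cells. The submitters' processing notes list TopHat 1.4.1, DESeq and mm9 without a role. A second deposited table (450 genes, 35 cells) holds none of the members and was not used. RPKM values were taken as deposited; no count test was made, since they are not counts. Members and gene lists were chosen with earlier results of these data known. Reads per cell were estimated from the steps of low values with GENCODE M21 lengths; 58.9% of low values were whole within 0.01, so the estimates are approximate. A pseudocount of 1 was added before log2. Cells were clustered by Ward linkage on centred log2 marker values, with 2 to 8 clusters tried and the highest silhouette taken. No doublet caller was run. Members were named by rank of mean, own spread, pair correlation and group ratio, with all paralog pairs; a few genes so named are not reported here. Pseudogenes were aligned with BLAST 2.17.0 (megablast). Python 3.11.15, numpy 2.4.6, pandas 2.3.3, scipy 1.17.1 and scikit-learn 1.9.0 were used, and the calculations were tested on simulated data. Alternatives were other pseudocounts, detection limits, cell filters, scalings and groupings.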

Additional observations from a re-analysis of the deposited data

How the results depend on the processing

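Of 277 recomputed values for 66 results, 269 moved by less than their spread or by at most 1.5 times, and 8 moved by more. For log2 ratios that spread was the SD over single cells, such as 0.21 for the median ratios of -0.14 and 0.06. A change of sign was looked for only in ratios reported at 2-fold or more, and no member had one, so none could be found. The ratio of Rps4y2 in stroma-marker cells went from 0.26 to -0.45 with means of log2 values and counts among the 269. Paralogs detected in every cell went from 3 to 2 at a limit of 3 RPKM, and members lower in bud-marker cells from 24 to 36 with cells scaled to their other genes. Without the 5 highest members the median sum was 54999 RPKM. With means of log2 values, 1 member (Rps4y2) passed 2-fold in bud-marker cells. The share of all genes past 2-fold was then 10.7% for stroma-marker and 18.3% for bud-marker cells, and 12.2 and 18.6% among genes whose mean was 10 RPKM or more. With a pseudocount of 10 the own spread of Rps4y2 was 1.54. The 10 members of widest own spread were all kept under other pseudocounts, and 9 of 10 without the cells of few genes or the shallow cells. Markers divided by their SD gave 2 clusters, with the 7 bud-marker cells again apart and no stroma-marker group, so that comparison has no value there. Leaving out the cells under 500000 estimated reads was added after seeing the data. Read depth is estimated, so no detection limit is given. No paired analysis was possible because there is only 1 group of cells.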
